A study of Mus musculus with 79 samples.

Results

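The transcripts described here are those of 6 neuropeptide genes of cortical interneurons that express vasoactive intestinal peptide (VIP): Vip, Penk, Crh, Npy, Cck and Pthlh. They were taken from the deposited count table by gene symbol, through the GENCODE vM21 annotation, and make up 6 of its 55335 genes. They were followed in all 79 libraries, which fall into 10 groups. The genes were listed by name and not by a rule on the counts, but with earlier results of these data known.

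Neuropeptides are made as larger precursor proteins, cut by prohormone convertases, packed into dense-core vesicles and released on strong or repeated firing to act on G-protein-coupled receptors. VIP interneurons of the cortex mostly inhibit other inhibitory neurons, and their peptides add slower signals to the fast transmitter GABA. Several peptide genes are known targets of activity-dependent transcription factors such as CREB, AP-1 and the EGR family. Vip encodes the peptide that names the class, Penk the precursor of the enkephalins, Crh corticotropin-releasing hormone, Npy neuropeptide Y, Cck cholecystokinin and Pthlh parathyroid hormone-like hormone.

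RNA was measured in pools of 50 to 100 nuclei sorted from frozen visual cortex of mice. Every group, the uninjected mice included, carried 1 knock-in INTACT allele (INTACT wt/ki) together with VIP Cre, also wt/ki, and was kept in the dark for 10 days. Cre is made in VIP neurons and switches on the INTACT tag on their nuclei. An adeno-associated virus (AAV) injected at postnatal day 55 to 60 drove Kir2.1 from the Syn1 promoter, joined through a 2a peptide to mScarlet-KASH, where Kir2.1 is an inwardly rectifying potassium channel that holds neurons near rest and mScarlet-KASH is a red fluorescent nuclear tag. The control virus had Kir2.1(Mutant) in the same design. The Syn1 promoter is active in neurons of every class, so that the neurons around a transduced VIP cell could carry the channel too. VIP nuclei gave 10 transduced Kir2.1 libraries, 9 transduced mutant libraries, 10 and 9 libraries of non-transduced nuclei after injection of Kir2.1 and of the mutant, and 3 libraries without AAV. Transduced neurons gave 8 libraries for each vector. Nuclei of all types gave 10 and 9 non-transduced libraries after Kir2.1 and mutant injection and 3 without AAV. The labels number the libraries as biological replicates but tie no number to an animal, so the p-values measure the spread between libraries. In such pools, fewer cells of a type and less RNA per cell cannot be told apart.

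Libraries held 3219899 to 9267246 counts (median 6170915). Levels are in CPM, the usual depth-scaled unit, after TMM scaling over all 79 libraries. The class label fitted its markers: all 15 genes of a list of VIP interneuron markers other than the peptides were higher in VIP than in all nuclei, and all 12 tested excitatory neuron markers were lower. Kcnj2, the gene of Kir2.1, ran from 268 to 1223 CPM over the 19 transduced VIP libraries and from 1.61 to 35.2 CPM over the 19 non-transduced ones. Its counts did not separate the channel from its mutant, so the vector labels rest on the submitters. The sex labels did not match the data: Xist, the RNA of the inactive X chromosome, classed as under 10 CPM or not, was under it in 16 of 41 libraries labelled female and at or above it in 16 of 38 labelled male. Libraries with the same vector and replicate number were of the same Xist class for 22 of 22 numbers. Of the VIP libraries, 3 correlated less than the others with the median profile of their group: Kir2.1 transduced 1, mutant transduced 1 and Kir2.1 non-transduced 9. Leaving them out changed no call of a member in the VIP comparisons below.

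The counts lie over small genes. On GRCm38, Vip is at chr10:5639218-5647617 on the plus strand and Npy at chr6:49822710-49829507, also plus. Penk (chr4:4133531-4138819), Crh (chr3:19693401-19695396), Cck (chr9:121489824-121495694) and Pthlh (chr6:147252101-147264183) are on the minus strand. Penk overlaps the non-coding gene A830012C17Rik on the opposite strand. Strand use in the counting is not given in the sources used here, so reads of this pair cannot be told apart.

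Since the members changed together in transduced VIP nuclei, the stretch just upstream of the start site is shown for 3 of them, from RefSeq with build GRCm38.p6, of the 4 members that had an entry. Each runs from base -150 to base -31 before the annotated start, 5′ to 3′ on the strand of the gene. Capitals mark CGTCA or its reverse complement TGACG, the core of the cAMP response element that CREB binds.
Vip, chr10:5639068-5639187, plus strand: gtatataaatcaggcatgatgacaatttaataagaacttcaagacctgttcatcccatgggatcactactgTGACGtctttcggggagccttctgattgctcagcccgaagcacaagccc
Npy, chr6:49822560-49822679, plus strand: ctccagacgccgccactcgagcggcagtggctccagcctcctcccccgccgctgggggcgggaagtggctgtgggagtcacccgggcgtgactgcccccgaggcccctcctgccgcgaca
Cck, chr9:121495725-121495844, minus strand: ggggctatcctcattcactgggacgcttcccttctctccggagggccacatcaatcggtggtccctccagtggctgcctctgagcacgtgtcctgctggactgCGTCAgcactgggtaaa

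In the 250 bases before the start, searched on both strands, Vip held TGACG at -79 to -75 and Cck held CGTCA at -47 to -43. Of 32851 RefSeq windows of this length, 17.8% held that core on either strand. The full element TGACGTCA, which contains it, was in 1.55% of windows and in none of the 4 members. Neither was the AP-1 motif TGANTCA (6.75% of windows) or the Nr4a motif AAAGGTCA (1.34%). The EGR motif GCGNGGGCG was in 4.7% of windows and, among the 4, in Pthlh, on the opposite strand at -194 to -186 as CGCCCCCGC. Npy, whose transcript differed most between the vectors, held none of the 5 motifs in this window, which describes these letters and not the binding of any factor.

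In transduced VIP nuclei all 6 peptide transcripts were lower with Kir2.1 than with the mutant channel, from 2.97-fold for Vip to 10.0-fold for Npy, while 1.03% of the 21207 genes tested were called lower and 1.39% in either direction. Every one of the 10 Kir2.1 libraries lay below the median mutant library for every one of the 6 genes. The question was what neuronal activity that remains during dark housing does to the cortex, and the mutant channel was the control for vector and injection. Differences are log2 fold changes with their SE and adjusted p-values from edgeR's quasi-likelihood test over all genes tested.

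Vip ran from 689 to 2801 CPM in the Kir2.1 libraries, with a median of 1867 CPM. In the mutant libraries it ran from 734 to 9123 CPM with a median of 5730 CPM. Of the 9 mutant libraries, 8 lay above the highest Kir2.1 library, and the groups overlapped through mutant library 1 at 734 CPM. The means were 1634 ± 687 CPM (SD, n = 10) and 4918 ± 2372 CPM (SD, n = 9), a log2 difference of -1.57 ± 0.29 (adjusted p = 0.00046).

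Penk, whose enkephalins act on delta and mu opioid receptors, ran from 52.5 to 234 CPM with Kir2.1 (median 119 CPM). With the mutant it ran from 73.7 to 996 CPM, with a median of 622.5 CPM. Again 8 mutant libraries exceeded every Kir2.1 library and library 1 was low. The log2 difference was -2.05 ± 0.30 (adjusted p = 1.03e-05), a 4.13-fold lower level. A830012C17Rik, the gene on the opposite strand, gave -1.51 ± 0.29 in the same test (adjusted p = 0.00075), a value that shares its reads with Penk as far as the counting ignored strand.

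Npy, a peptide that acts on Y receptors and is better known from Sst and neurogliaform interneurons, showed the widest gap. It ran from 4.14 to 37.3 CPM with Kir2.1 (median 15.5 CPM) and from 56.6 to 279 CPM with the mutant (median 237 CPM). No Kir2.1 library reached the lowest mutant library, a separation in this direction that 0.146% of genes tested showed. Mutant libraries split into 6 between 228 and 279 CPM and 3 between 56.6 and 77.5 CPM. The log2 difference was -3.33 ± 0.41 (adjusted p = 4.37e-07).

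Crh, the hypothalamic stress hormone that a subset of VIP cells also makes, ran from 3.81 to 59.4 CPM with Kir2.1 (median 23.0 CPM). With the mutant it ran from 40.4 to 326 CPM (median 120 CPM). Of the Kir2.1 libraries, 9 of 10 were below the lowest mutant library. The log2 difference was -2.59 ± 0.43 (adjusted p = 0.00010).

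Cck, whose peptide acts on CCK receptors and which marks a subset of VIP cells as well as many excitatory neurons, ran from 8.79 to 325 CPM with Kir2.1 (median 71.7 CPM). The highest of these, library 1, stood apart from the other 9, which reached 163 CPM. With the mutant it ran from 77.2 to 532 CPM (median 353 CPM). Of the mutant libraries, 5 of 9 lay above every Kir2.1 library, the fewest among the 6 genes, and its log2 difference was -1.62 ± 0.38 (adjusted p = 0.013).

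Pthlh, a local peptide hormone that acts on the PTH1 receptor, was the lowest of the 6 in the mutant libraries and the most even. It ran from 18.5 to 44.4 CPM with Kir2.1 (median 23.2 CPM) and from 33.0 to 124 CPM with the mutant (median 88.9 CPM). Mutant library 1 was again the only mutant library inside the Kir2.1 range. The log2 difference was -1.70 ± 0.24 (adjusted p = 3.30e-06).

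**Figure D1:**
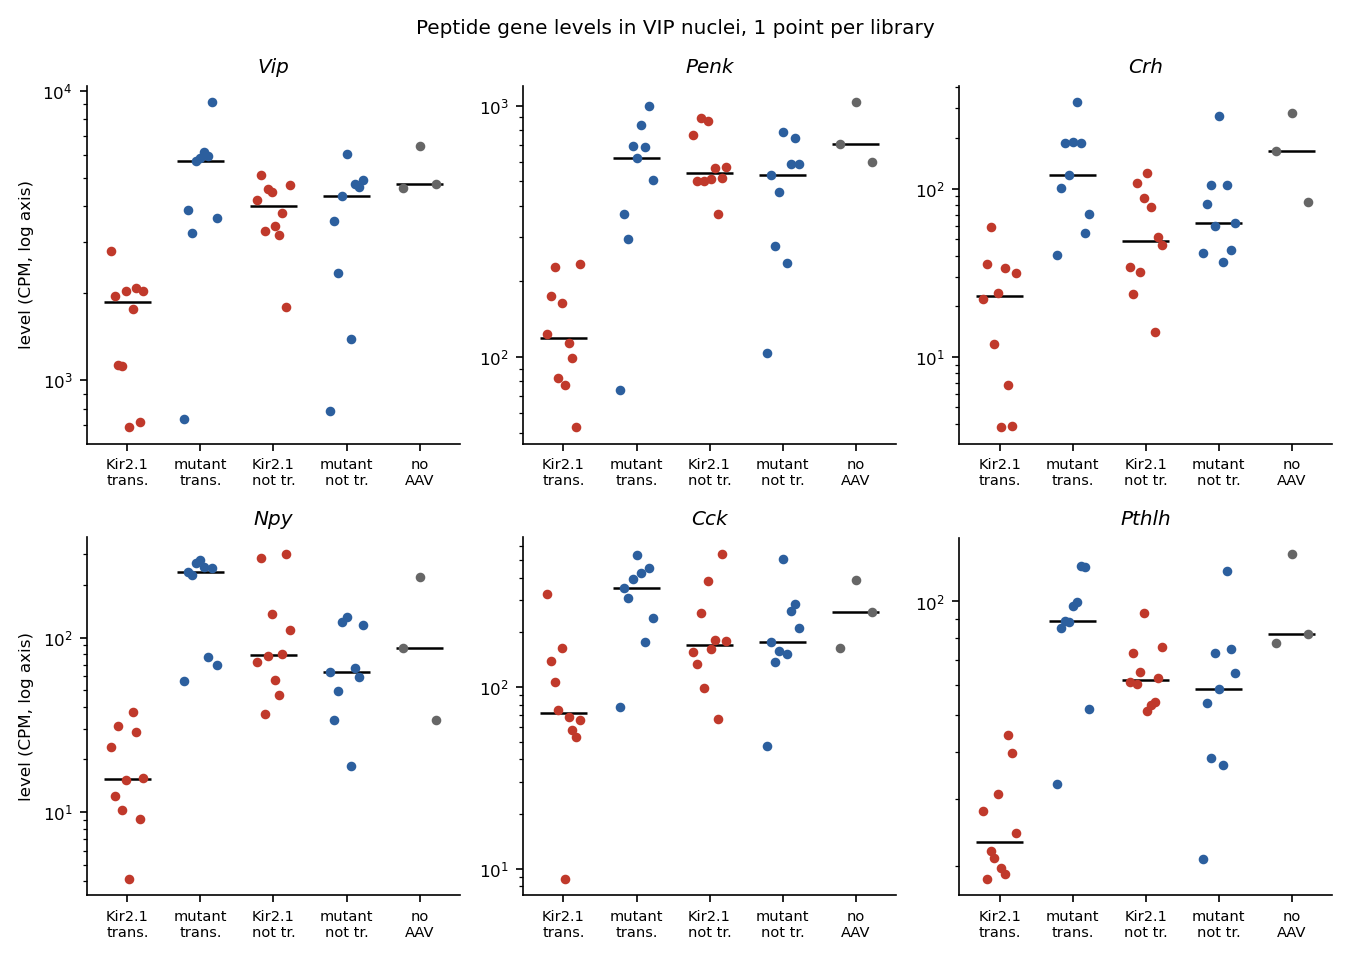
Level of each of the 6 peptide genes in VIP nuclei (CPM, log axis), 1 point per library, in 5 groups (trans., transduced; not tr., non-transduced); black lines are medians. The transduced Kir2.1 libraries lie below the median transduced mutant library for all 6 genes, and for Npy the ranges, 4.14 to 37.3 CPM and 56.6 to 279 CPM, do not meet.

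Calls of all 6 genes held in each of the 19 fits that left out a single library of the 2 groups and with sex from the labels or Xist class as a covariate. Among libraries labelled male alone, 2 members passed (Crh and Npy), while Vip (-1.65), Penk (-2.16), Cck (-2.04) and Pthlh (-1.37) did not, with adjusted p-values from 0.052 to 0.20. Among those labelled female alone, Cck did not pass (-1.62, adjusted p = 0.32). The share of counts in genes spanning under 10 kb, a measure of library composition, ran from 10.8% to 22.9% with Kir2.1 (median 19.0%) and from 11.7% to 21.7% with the mutant (median 16.9%). With that share as a covariate, an alternative added after seeing the data, all 6 members stayed lower and passed, from -1.72 ± 0.25 for Vip to -3.53 ± 0.38 for Npy. Mutant library 1, the lowest of its group in all 6 members, had the lowest share of its group (11.7%). Its summed VIP marker list was the highest of its group at 20580 CPM, and so was its summed Sst-cell list at 520 CPM. The latter list holds genes that are also high in VIP nuclei (Elfn1 and Grin3a). Its part in the result is given by the fits without it, in which all 6 members passed.

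Few markers of other cells passed in this comparison, while several summed lists shifted. The summed list of 10 Sst-cell markers ran from 150 to 344.5 CPM with Kir2.1 and from 231 to 520 CPM with the mutant, and 1 of its 10 genes was called (Cort, lower). The list of 8 Lamp5-cell markers summed to 71.4 to 132 CPM with Kir2.1 and 65.9 to 157 CPM with the mutant, with 0 of 6 tested genes called and Ndnf at 0 in both groups. The 12 excitatory markers summed to 45.7 to 217 CPM (mean 101 CPM) with Kir2.1 and 38.6 to 80.1 CPM (mean 63.2 CPM) with the mutant, with 0 called. Parvalbumin-cell markers had means of 565 CPM in both groups, with 1 of 6 called (Kcnc1, higher). Some genes of these lists were themselves called higher in VIP nuclei than in all nuclei. In the Sst-cell list these were Elfn1 and Grin3a, while Sst, Calb1 and Tac1 were lower. In the parvalbumin-cell list they were Btbd11 and Kcnc1, while Tac1 and Syt2 were lower. The 2 sums therefore do not measure the content of Sst or parvalbumin cells. Astrocyte markers had mean sums of 181 CPM with Kir2.1 and 133.5 CPM with the mutant, oligodendrocyte markers of 266 and 218 CPM and microglia markers of 170 and 176 CPM, with 0 called in each list. A list of 11 genes of GABAergic neurons in general, 12 entries of the table, had mean sums of 1532 CPM with Kir2.1 and 2156 CPM with the mutant. Of its 12 entries 2 were called lower, the interneuron transcription factor Dlx1 (-1.28 ± 0.19, adjusted p = 6.10e-06) and 1 entry of the non-coding Dlx6os1 (-1.56 ± 0.20, adjusted p = 8.87e-07). The VIP markers themselves were lower in sum, 7928 to 15880 CPM with Kir2.1 and 12870 to 20580 CPM with the mutant. Of their 15 genes 2 were called lower, Adarb2 (-0.97 ± 0.17, adjusted p = 0.00015) and Igf1 (-0.67 ± 0.13, adjusted p = 0.0018). The part of these shifts in the result was not tested.

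Within VIP nuclei of injected cortices that had not taken up the virus, the peptide genes did not separate by vector. None of the 6 passed, as none of the 21207 genes did (0.0%), although 1843 genes had an unadjusted p under 0.05 and DESeq2 called 15. Vip had a median of 3994 CPM after Kir2.1 (range 1792 to 5123 CPM) and 4333 CPM after the mutant (787 to 6038 CPM). The ranges overlapped widely, with a log2 difference of 0.09 and a 95% interval of -0.47 to 0.64. For Npy, with medians of 79.1 and 63.5 CPM, the difference was 0.69 (-0.06 to 1.44). Penk differed by 0.34 (-0.24 to 0.92), Crh by -0.58 (-1.39 to 0.23), Cck by -0.01 (-0.74 to 0.73) and Pthlh by 0.11 (-0.34 to 0.56). Each interval lies above the value found in transduced nuclei for the same gene, which leaves the SE of that value out. The interaction given below takes it in, and there Crh and Cck did not pass. With the share of short genes as a covariate Vip, Penk and Pthlh changed sign, at -0.083, -0.011 and -0.036, and stayed near 0.

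With Kir2.1, 4 of the 6 genes were lower in VIP nuclei that carried the virus than in those that did not, against 0.599% of all genes called lower and 0.769% in either direction. Penk fell by 2.15 on the log2 scale (SE 0.30, adjusted p = 4.97e-06), from a median of 542 CPM in non-transduced to 119 CPM in transduced nuclei. Its lowest non-transduced library, at 371 CPM, lay above its highest transduced one at 234 CPM. Pthlh also separated without overlap, from 51.4 to 93.4 CPM in non-transduced against 18.5 to 44.4 CPM in transduced nuclei (-1.27 ± 0.23, adjusted p = 0.00062). Such separation in this direction was found for 0.0849% of genes.

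Npy was lower by 2.65 ± 0.40 on the log2 scale (adjusted p = 1.79e-05), with 9 of 10 transduced libraries below every non-transduced one, and Vip by 1.23 ± 0.28 (adjusted p = 0.015). Crh (-1.35 ± 0.41, adjusted p = 0.105) and Cck (-1.0 ± 0.37, adjusted p = 0.22) did not pass. Crh passed without transduced Kir2.1 library 3 (adjusted p = 0.046) and Cck without transduced Kir2.1 library 1 (adjusted p = 0.048).

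With the mutant channel no member passed between transduced and non-transduced VIP nuclei, where 2 of all genes were called (0.00943%). Differences ran from 0.24 ± 0.30 for Penk to 1.37 ± 0.40 for Npy. The 95% intervals of Npy (0.59 to 2.145) and Pthlh (0.077 to 1.009) lay above 0, and those of the other members included 0. For Npy, 6 of the 9 transduced mutant libraries exceeded every non-transduced mutant library, yet its adjusted p was 0.44.

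Whether the vector difference itself depended on transduction was tested as an interaction. It passed for Npy (-4.02 ± 0.56, adjusted p = 3.06e-05), Penk (-2.39 ± 0.42, adjusted p = 0.0015), Pthlh (-1.81 ± 0.33, adjusted p = 0.0022) and Vip (-1.66 ± 0.41, adjusted p = 0.043). These 4 of 6 compare with 0.278% of genes called in this direction and 0.401% in either. The value for Vip was near the threshold: it passed in 15 of 38 fits without a single library, with an adjusted p of up to 0.079 without transduced mutant library 8. Crh (-2.01 ± 0.59, adjusted p = 0.12) and Cck (-1.61 ± 0.53, adjusted p = 0.22) did not pass. Crh did so without non-transduced mutant library 5 (adjusted p = 0.042), in which it stood at 269.5 CPM.

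**Figure D2:**
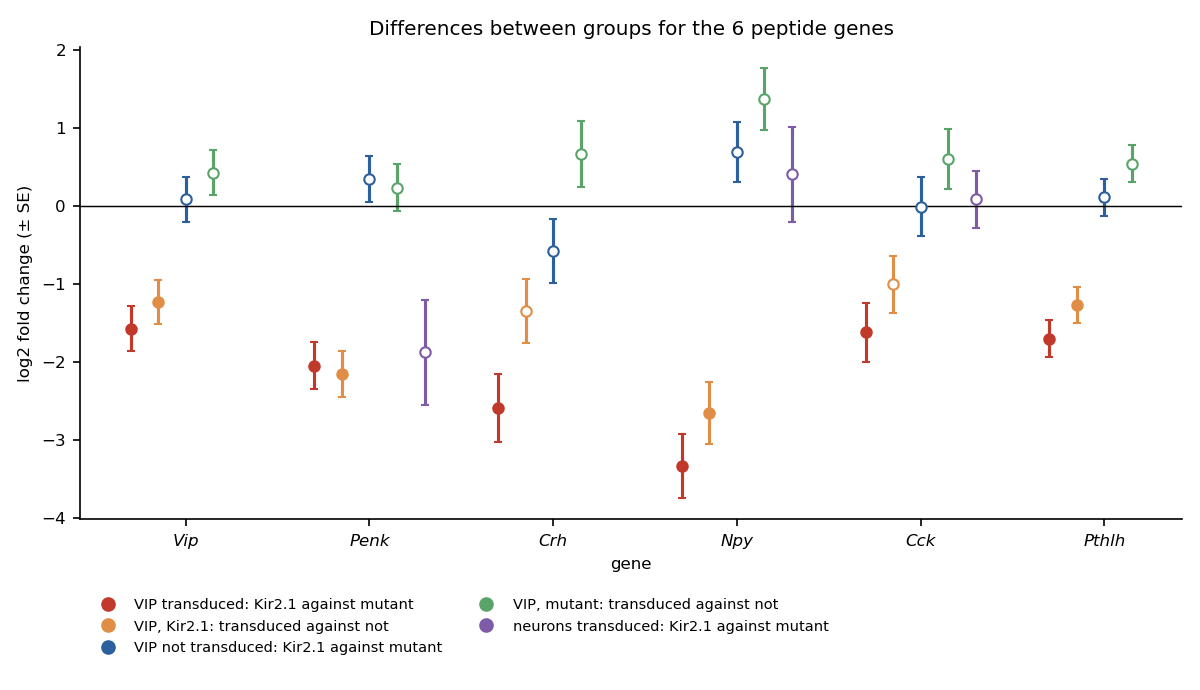
Log2 fold change with its SE for each peptide gene in 5 comparisons; filled points passed an adjusted p of 0.05 and open points did not. Red points (transduced VIP, Kir2.1 against mutant) lie between -1.57 and -3.33, while blue points, the same contrast in non-transduced VIP nuclei, lie around 0.

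Uninjected mice, 3 libraries and all labelled male, gave the background of injection. Their VIP nuclei held 4618, 4752 and 6454 CPM of Vip, 595, 705 and 1034 CPM of Penk, and 33.9, 87.2 and 222 CPM of Npy. No member passed against them in mutant nuclei, transduced (0.0283% of genes called) or non-transduced (0.0%). The largest difference was -0.99 ± 0.57 for Crh in non-transduced nuclei (adjusted p = 0.44). For Pthlh in non-transduced nuclei the 95% interval, -1.326 to -0.06, lay under 0. The share of counts in short genes ran from 20.2% to 25.9% in uninjected VIP libraries (median 22.1%). Its medians were 16.9% and 15.1% in transduced and non-transduced mutant VIP nuclei. With that share as a covariate, Vip, Penk and Crh stood at 0.47, 0.32 and 0.79 in transduced mutant nuclei. In non-transduced mutant nuclei they stood at 0.25, 0.35 and 0.45, and none of these passed. Transduced Kir2.1 nuclei were lower than uninjected ones in 5 of 6 members, all but Cck, against 0.151% of genes lower and 0.222% in either direction. Penk was lower by 2.51 ± 0.38 on the log2 scale (adjusted p = 8.47e-05) and Npy by 2.59 ± 0.49 (adjusted p = 0.0036). For Vip, Penk, Crh and Pthlh all 10 Kir2.1 libraries lay below all 3 uninjected ones, as they did for 0.764% of genes tested. Without uninjected library 2, only Penk still passed (-2.26). Npy went from 6.01-fold to 3.21-fold lower, and Vip (-1.52), Crh (-2.42) and Pthlh (-1.57) did not pass. Vip passed in 8 of 13 fits without a single library and lost its call without any 1 of the 3 uninjected libraries or Kir2.1 library 4 or 9.

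Of the wider set of peptide genes, few passed in the same comparison, and those under the count filter were not tested. A list of 41 other peptide precursors had 23 tested genes in the comparison of transduced VIP nuclei. Of these 0 were higher and 2 lower, where 1.03% of all genes were called lower and 1.39% in either direction. Their median log2 difference was 0.40 against 0.04 over all genes. Pnoc, the nociceptin precursor, fell from a median of 88.3 CPM with the mutant to 25.0 CPM with Kir2.1 (-1.61 ± 0.30, adjusted p = 0.00061). Cort, the cortistatin precursor, was sparse, at 0.60 to 22.5 CPM with the mutant and 0 to 3.86 CPM with Kir2.1 (-3.76 ± 0.96, adjusted p = 0.028). Tac2, the neurokinin B precursor, ran from 280 to 1479 CPM with Kir2.1 and 116 to 1310 CPM with the mutant. Its ranges overlapped almost wholly, with a difference of 0.41 ± 0.31 (adjusted p = 0.73).

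None of 15 tested peptide receptor genes passed in transduced VIP nuclei. Of 22 genes that process or store peptides, 2 were lower. Pcsk1, the convertase that makes the first cuts in prohormones, went from 44.4 to 141 CPM with the mutant (median 78.1 CPM) to 18.7 to 42.6 CPM with Kir2.1 (median 31.8 CPM), with no overlap (-1.40 ± 0.20, adjusted p = 4.79e-06). Vgf, a granin-like secretory protein induced by activity, was at 14.2 to 56.9 CPM with the mutant and 0 to 9.12 CPM with Kir2.1 (-3.54 ± 0.50, adjusted p = 4.89e-06). Pcsk1n, which encodes an inhibitor of that convertase, was higher by 2.33 ± 0.57 (adjusted p = 0.017), with Kir2.1 libraries from 15.8 to 607 CPM and mutant ones from 12.1 to 108 CPM. Against non-transduced nuclei with the same vector, Pcsk1 (-1.52 ± 0.20, adjusted p = 8.44e-07), Vgf (-3.26 ± 0.49, adjusted p = 2.36e-05) and Pnoc (-1.32 ± 0.29, adjusted p = 0.012) were lower too. Cort and Pcsk1n did not pass in that comparison.

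Relative to Vip in the same library, Npy was the member that dropped furthest. The log2 ratio of Npy to Vip, on CPM + 1, was -6.46 ± 0.70 (SD, n = 10) with Kir2.1 and -4.67 ± 0.87 (SD, n = 9) with the mutant, a difference of -1.79 (two-sided exact permutation test, p = 0.00045, adjusted p = 0.0023 over 5 ratios). Crh to Vip differed by -1.24 (exact permutation, adjusted p = 0.052) and Penk to Vip by -0.44 (adjusted p = 0.11 by the same exact permutation test). Cck to Vip differed by -0.41 and Pthlh to Vip by -0.16, with exact permutation p-values of 0.28 and 0.61. These ratios were computed after the fold changes were known.

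**Figure D3:**
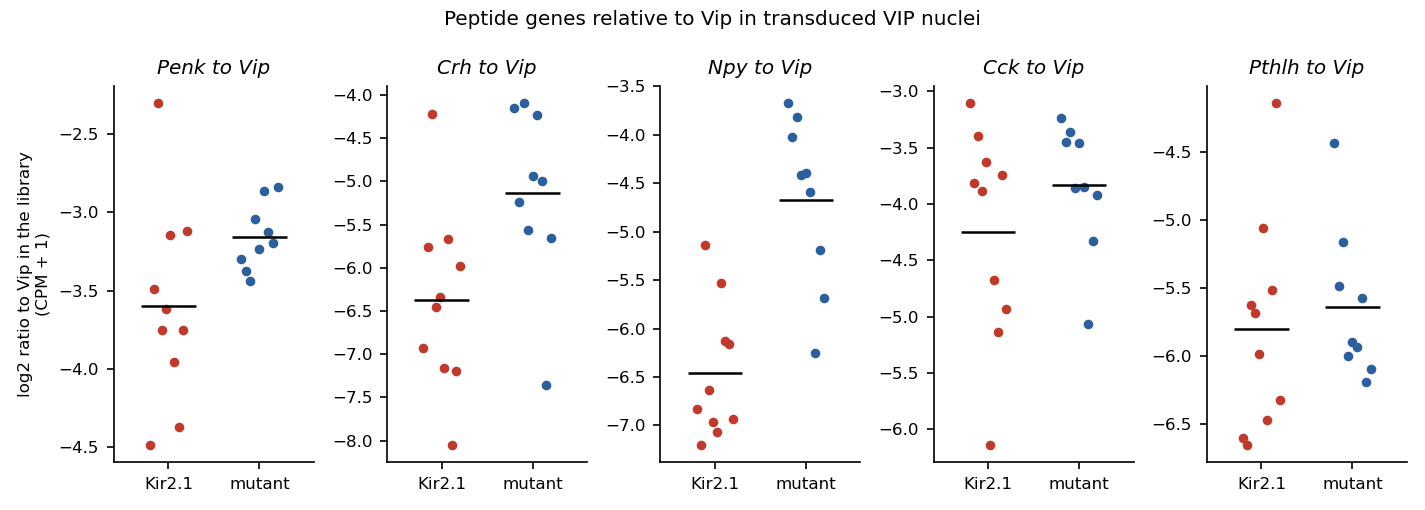
Log2 ratio of 5 peptide genes to Vip within each transduced VIP library (CPM + 1), by vector; black lines are means and each panel has its own axis. Npy to Vip has means of -6.46 with Kir2.1 and -4.67 with the mutant, and Pthlh to Vip has -5.81 and -5.64.

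Per kilobase of exon, Vip stayed the highest of the 6 in each VIP group. In transduced mutant nuclei its mean level per length was 1446 ± 697 CPM per kb (SD, n = 9), followed by Penk (346 ± 175 CPM per kb), Npy (337 ± 165), Cck (252 ± 110), Crh (108 ± 68.5) and Pthlh (54.4 ± 18.5). With Kir2.1 the means per length were 480 CPM per kb for Vip, 82.6 for Penk, 81.4 for Cck, 33.2 for Npy, 17.6 for Crh and 16.5 for Pthlh. Among all 55154 matched genes, Vip ranked 14th by this measure in mutant and 30th in Kir2.1 transduced nuclei. Npy moved from rank 50 to rank 1210 and Crh from 252 to 2561. The 6 genes together summed to 6233 ± 2855 CPM (SD, n = 9) with the mutant and 1944 ± 790 CPM (SD, n = 10) with Kir2.1, and Vip made up 78.9% and 84.1% of that sum. Nuclear RNA holds introns, and the annotation behind the counts is not given in the sources used here, so lengths are approximate.

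Across the 10 groups the members fell into 2 kinds by their order of levels. Vip, Penk, Crh and Pthlh were higher in every library of the 5 VIP groups than in every other library, as were 0.499% of genes tested. The margin was narrow for Penk, at 52.5 CPM in the lowest VIP library and 49.6 CPM in the highest other library. It was narrow for Crh as well, at 3.81 CPM and 3.35 CPM. Group means of Penk outside VIP nuclei ran from 4.17 to 20.5 CPM. Vip reached 64.0 CPM outside VIP nuclei and Pthlh 6.16 CPM. Among VIP groups, uninjected nuclei had the highest mean of each of the 4 genes and also the highest median share of counts in short genes. Its part in this order was not tested. Neighbours in the order differed by less than 1 SD except for the step down to transduced Kir2.1 nuclei for Vip, Penk and Pthlh.

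By group mean, Npy and Cck were highest in transduced mutant VIP nuclei and lowest in transduced Kir2.1 VIP nuclei. Every other group, neurons and all nuclei included, had a mean in between. By median, Npy was lower in transduced Kir2.1 neurons (11.6 CPM) than in transduced Kir2.1 VIP nuclei (15.5 CPM). For these genes no neighbouring groups in the order differed by over 1 SD. The mean of Npy in transduced Kir2.1 VIP nuclei, 18.8 ± 10.9 CPM (SD, n = 10), was under that of nuclei of all types after the same injection, 25.5 ± 19.1 CPM (SD, n = 10).

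**Figure D4:**
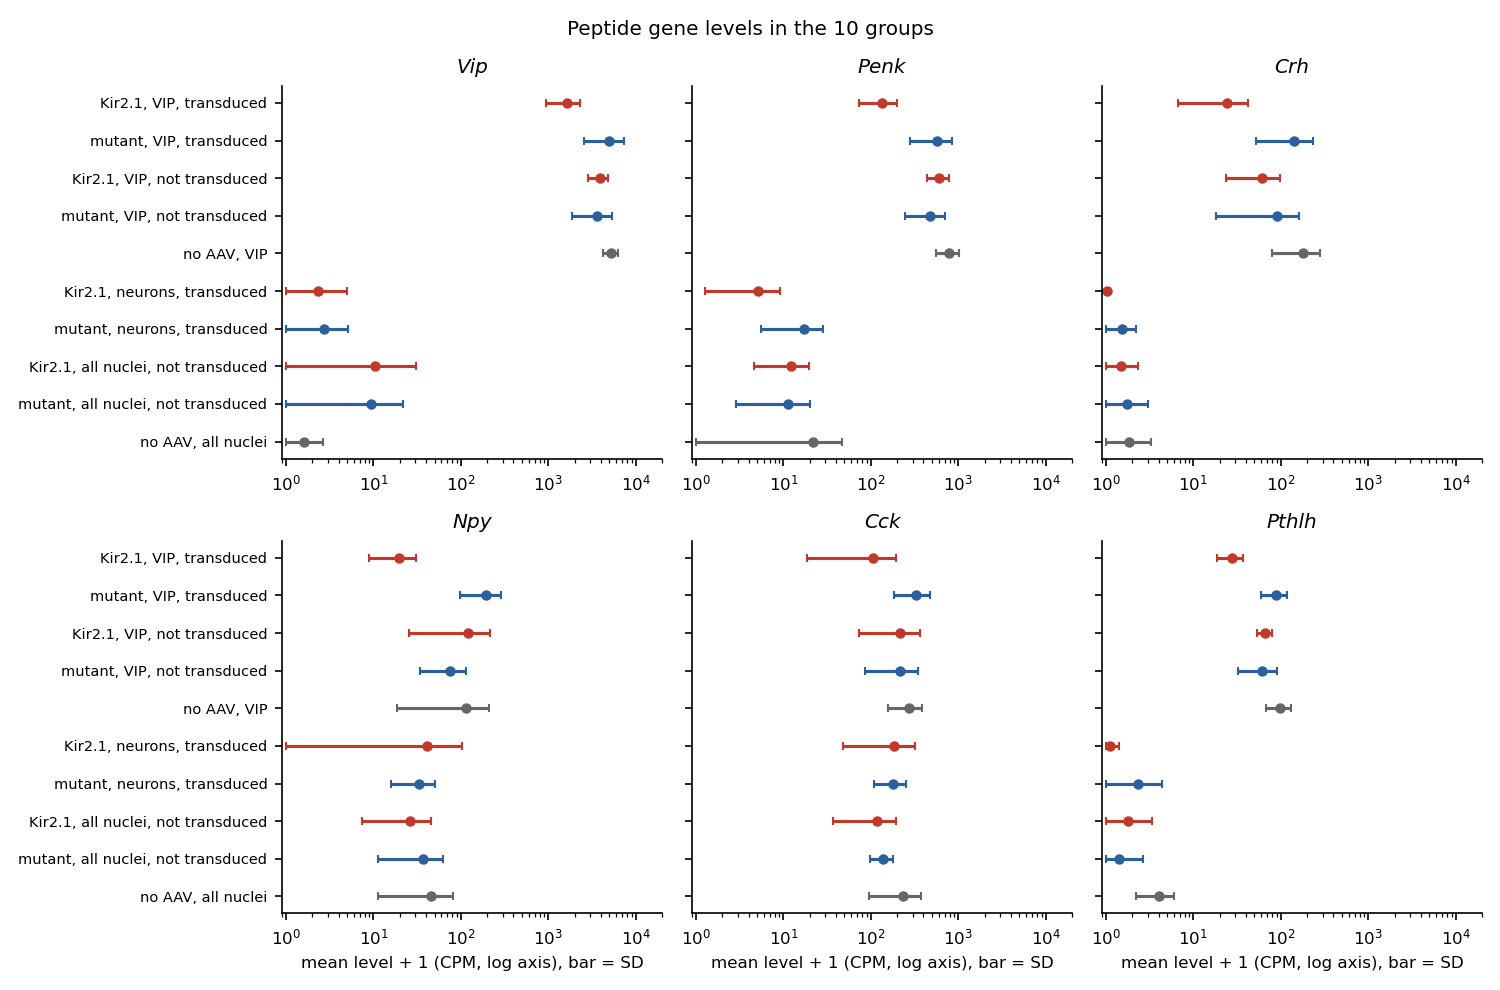
Mean level + 1 of each peptide gene (CPM, log axis) in the 10 groups, with bars of 1 SD over libraries cut at 0; red is Kir2.1, blue the mutant and grey no AAV. Means of Vip, Penk, Crh and Pthlh are higher in each of the 5 VIP groups than in the others, while those of Npy (18.8 to 191 CPM) and Cck (106 to 329 CPM) are lowest and highest in VIP groups.

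Against nuclei of all types, without transduced libraries, 5 of the 6 genes were higher in VIP nuclei, where 10.7% of all genes were higher and 27.4% differed in either direction. The difference was 10.14 ± 0.85 for Vip (adjusted p = 2.75e-14), 7.16 ± 0.67 for Crh, 6.08 ± 0.61 for Pthlh and 5.51 ± 0.44 for Penk, all on the log2 scale. Npy was 1.54 ± 0.36 higher (adjusted p = 0.00078). Cck was 0.59 ± 0.26 higher and did not pass (adjusted p = 0.084), although it did in 3 of 44 fits without a single library: Kir2.1 all-nuclei library 2 or 3 or uninjected all-nuclei library 2. Of the other peptide precursors 4 of 23 were higher in VIP nuclei (Tac2, Pnoc, Edn3 and Adm) and 8 lower, among them Sst (-2.24 ± 0.41) and Adcyap1 (-6.53 ± 1.05). Tac2 was higher by 8.97 ± 0.68 and Pnoc by 3.68 ± 0.37. Of 16 receptor genes, 4 were higher, 3 of them for neuropeptide Y: Npy2r (5.93 ± 0.60), Npy5r (2.58 ± 0.30) and Npy1r (2.34 ± 0.22). Lower were 5, among them Cckbr (-4.23 ± 0.59) and Crhr1 (-1.81 ± 0.32).

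In nuclei of all types that were not transduced, no member passed between the vectors. Neither did any of 21362 genes (0.0%), with 1289 at an unadjusted p under 0.05 and 5 called by DESeq2. Npy had medians of 16.3 CPM after Kir2.1 and 28.0 CPM after the mutant, and Cck of 112 and 121 CPM. Vip was at 0 in 4 of 10 Kir2.1 and 1 of 9 mutant libraries. It reached 64.0 and 40.6 CPM in library 1 of each vector. Against uninjected mice no member passed (0.225% of genes called).

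In transduced neurons of all classes the peptide genes were a minor part of the RNA, and none of the 3 that could be tested passed, where 3.45% of 15949 genes were called lower and 5.63% in either direction. Penk ran from 0 to 12.5 CPM with Kir2.1 (median 3.85 CPM) and from 0.15 to 38.2 CPM with the mutant (median 13 CPM). All 8 Kir2.1 libraries lay below the mutant median, and 4 mutant libraries exceeded every Kir2.1 library. The difference of -1.88 ± 0.67 had an adjusted p of 0.10, and it passed without Kir2.1 neuron library 4 (adjusted p = 0.045) or mutant neuron library 4 (adjusted p = 0.036).

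Npy was uneven in the neurons with Kir2.1, where 6 libraries lay between 2.96 and 15.1 CPM and libraries 4 and 10 at 168 and 103 CPM. The 8 mutant libraries ran from 12.3 to 56.1 CPM (median 30.8 CPM), so 5 Kir2.1 libraries lay below all of them and 2 above all of them. The fitted difference was 0.41 ± 0.61 (adjusted p = 0.80), while the medians differ in the other direction, 11.6 CPM with Kir2.1 against 30.8 CPM. It changed sign without Kir2.1 neuron library 4 (-0.47).

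Cck, the most abundant of the 6 in neurons, had medians of 121.5 CPM with Kir2.1 and 168 CPM with the mutant (0.09 ± 0.36, adjusted p = 0.94). Vip, Crh and Pthlh were under the count filter. Vip was listed at 0 in 4 of 8 Kir2.1 and 5 of 8 mutant libraries. Crh had 2 counts in all Kir2.1 neuron libraries and 22 in the mutant ones, and Pthlh 4 and 72.

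Markers of GABAergic neurons also differed between these pools: the summed list of 11 genes (12 table entries) ran from 60.4 to 172 CPM in Kir2.1 neurons and from 170 to 318 CPM in mutant neurons, with 3 of its 8 tested genes lower. The part of this shift in the values of Penk, Crh, Npy and Pthlh was not tested. In the same neurons 6 of 21 tested peptide-processing genes were lower, led by Pcsk1 (-2.79 ± 0.32, adjusted p = 3.52e-06), Pam (-0.87 ± 0.15, adjusted p = 0.00060) and Scg2 (-1.37 ± 0.25, adjusted p = 0.00079). Of 12 receptor genes 3 were lower, Oprm1 (-1.0 ± 0.17), Cckbr (-1.03 ± 0.29) and Pth2r (-2.73 ± 0.81). Of 11 other precursors 1 was lower, Adcyap1, the PACAP precursor (-2.84 ± 0.74, adjusted p = 0.020).

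The difference between vectors was set against that in neurons in 1 fit of the 35 transduced libraries. Only Npy of the 6 passed this interaction (-3.68 ± 0.77, adjusted p = 0.015), where 0.114% of genes were called in this direction and 0.316% in either. The call was lost without Kir2.1 neuron library 4 (-2.86, adjusted p = 0.066), with the replicate number as a block (-2.83, adjusted p = 0.15) and with the share of short genes as a covariate (-2.44, adjusted p = 0.063). That block joined libraries of the same number across the vectors, which the labels do not tie to 1 animal. Penk, with differences of -2.05 in VIP nuclei and -1.88 in neurons in the separate fits, had an interaction of -0.11 with a 95% interval of -1.50 to 1.28. The interactions of Vip, Crh, Cck and Pthlh did not pass either, with adjusted p-values from 0.35 to 1.00. Vip, Crh and Pthlh were under the count filter in the fit of neurons alone. Their interactions rest on few neuron counts and cannot show whether the vector difference is alike in the 2 populations.

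**Figure D5:**
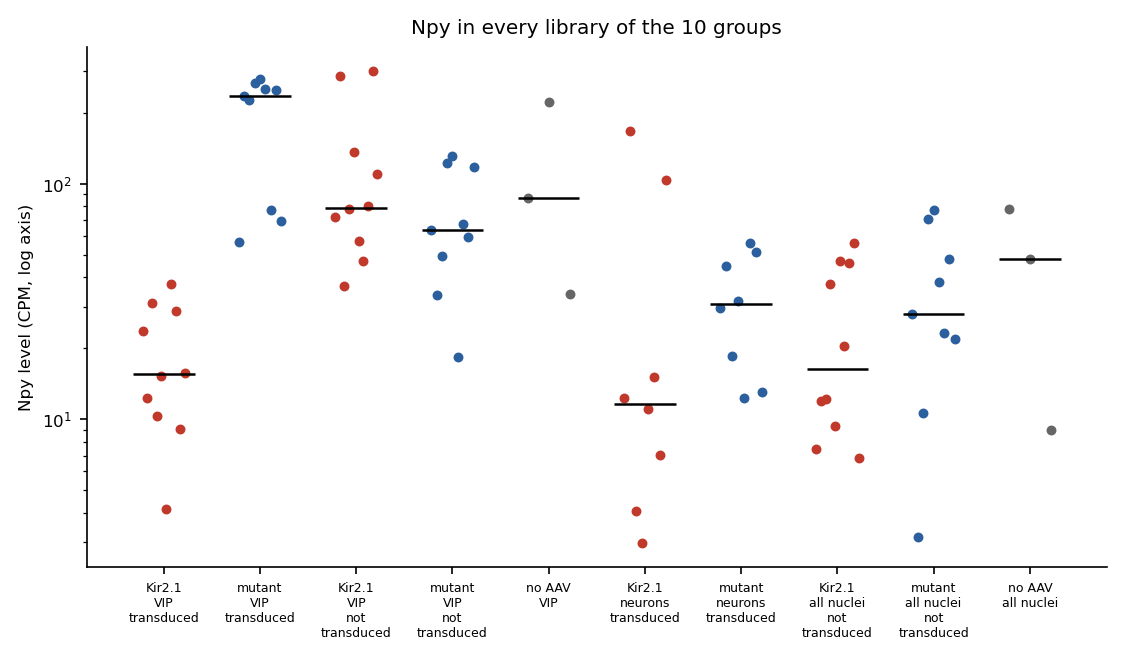
Npy level in every library of the 10 groups (CPM, log axis), black lines being medians. The 10 transduced Kir2.1 VIP libraries reach 37.3 CPM at most, and of the 8 transduced Kir2.1 neuron libraries 6 lie at or under 15.1 CPM and 2 above 100 CPM.

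For each member the 3 genes with the most similar group means were found over the 10 groups, as Pearson's r of the group means of log2(CPM + 1). The search covered 13259 genes with a mean of at least 10 CPM in a group. The r is a description: the points share libraries, and 5 of the 10 groups are VIP nuclei. Nearest to Vip were Slc5a7, the choline transporter (0.996), Igf1 (0.996) and Elfn1 (0.994). Nearest to Penk were Dlx1, an interneuron transcription factor (0.996), the overlapping A830012C17Rik (0.996) and, of the members themselves, Pthlh (0.990). Pthlh had Gm17750 (0.996), Lancl1 (0.994) and A830012C17Rik (0.993), and Crh had C130023A14Rik (0.990), Bcat1 (0.988) and AC134458.2 (0.986). Npy and Cck had no such close neighbours: Ankrd50 (0.956), Mir670hg (0.950) and Exoc3 (0.947) for Npy, and Ube2f (0.967), Ccn3 (0.925) and Scamp1 (0.903) for Cck. Between members, Vip and Penk had an r of 0.972 and Vip and Cck one of 0.343. With a pseudocount of 0.1, 1 of the 3 nearest genes was shared for Vip, Crh and Pthlh.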

How the data were processed

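The authors deposited unnormalized counts, in whole numbers, for 55335 genes in each of the 79 libraries. Tools named in the submitters' processing notes are STAR 2.5.3a, HOMER 4.9.1 and cutadapt 1.18, with build mm10; annotation, counting settings and strand use are not given in the sources used here. Per the labels' protocols, reverse transcription of 50 to 100 nuclei with an oligo-dT primer was followed by 17 PCR cycles and a transposase library kit. The protocol names harvest in the dark or after light, and the library labels 10 days of darkness, which were followed. The protocol names no molecular identifiers, so counts can hold PCR copies of 1 molecule. Of the identifiers 55154 matched GENCODE vM21 and 181, with 0.0264% of counts, did not.

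Every fit used edgeR 4.0.16 with TMM factors and its quasi-likelihood F test (filterByExpr with minimum count 10 and minimum total 15; R 4.3.3), two-sided, with Benjamini-Hochberg adjustment over all genes tested and a threshold of 0.05. VIP comparisons shared a fit of 41 libraries; neurons, all nuclei, VIP against all nuclei and the vector by population interaction had fits of 16, 22, 44 and 35. The SE is the log2 fold change divided by the square root of F. The script was tested on simulated data. Members, lists and comparisons were chosen with earlier results of these data known. The named genes are the members, up to 6 called genes of each list by adjusted p, and the 3 genes most like each member. DESeq2 1.42.0 and other settings were alternatives.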

Additional observations from a re-analysis of the deposited data

Results flagged for a closer look

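In the 48 sets of 8 to 10 libraries examined (6 genes in 8 groups), 10 libraries were flagged by Dixon's test on CPM. It sets the gap to the next library against the range of the group. Its limits are passed in about 1 of 20 groups of normally distributed values. That rate does not hold for skewed levels with many zeros. In VIP nuclei the flagged values were Cck in transduced Kir2.1 library 1, at 325 CPM with the next library at 163 CPM, and Crh in non-transduced mutant library 5, at 269.5 CPM. The first of these also stood apart in its whole profile, and the difference of Cck between vectors was -2.0 without it. The other 8 were high values of low transcripts. Vip was at 64.0 CPM in all nuclei of Kir2.1 library 1, 40.6 CPM in all nuclei of mutant library 1 and 7.64 CPM in Kir2.1 neuron library 7. Penk was at 12.5 CPM in Kir2.1 neuron library 4. Crh was at 2.67 CPM in all nuclei of Kir2.1 library 9. Pthlh was at 0.84 CPM in Kir2.1 neuron library 10, 6.16 CPM in mutant neuron library 7 and 3.69 CPM in all nuclei of mutant library 9.

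The vector difference changed with transduction in VIP nuclei, by a test of the interaction, for Vip (-1.66), Penk (-2.39), Npy (-4.02) and Pthlh (-1.81). It differed between VIP nuclei and neurons for Npy (-3.68), a call that was lost without Kir2.1 neuron library 4.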

How the results depend on the processing

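The lower level of all 6 genes in transduced VIP nuclei with Kir2.1 kept its direction under every alternative run and its call under each except the fits on libraries of 1 labelled sex: 2 members passed with libraries labelled male only and 5 with those labelled female only. The count of members called for the vector by population interaction was 0 with the replicate block and 0 with the share of short genes as a covariate. Without a single library the count was 0 to 1 for transduced neurons, 0 to 1 for that interaction and 1 to 5 for transduced Kir2.1 nuclei against no AAV. The vector by transduction interaction of Vip lost its call with sex (adjusted p = 0.055), with Xist class (0.053) and with only the groups compared (0.080), and Vip against no AAV lost it with Xist class (0.11) and short genes (0.11). Short genes brought Crh and Cck past the threshold for transduced against non-transduced Kir2.1 nuclei (adjusted p = 0.0043 and 0.013) and Crh for the interaction with transduction (0.031), as did no filter on low counts (0.026). The cause of these changes was not tested.

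All values that changed sign were of differences that did not pass. The replicate block used numbers whose link to animals the labels do not give, and joined libraries of the same number across the vectors. It gave -1.42 for Npy and -0.39 for Cck in neurons, 0.016 for Cck in non-transduced VIP nuclei and -1.14 for Vip in all nuclei. For Crh in all nuclei, mutant against no AAV, it gave 0.91. Deviations from the group means of same-numbered libraries correlated at -0.113 to 0.61 between transduced and non-transduced mutant VIP nuclei (6 of 9 pairs over 0.1, 6 of 9 best with their own number) and at 0.013 to 0.237 for Kir2.1 (5 of 10 and 6 of 10), and in none of the 15 pairs of groups were all over 0.1. Same-numbered libraries of a vector shared their Xist class for 22 of 22 numbers. Between the vectors, deviations of same-numbered transduced VIP libraries correlated at -0.135 to 0.123, with 1 of 9 best with its own number. A block by vector and number was not fitted. The share of short genes gave -1.56 for Npy and -0.76 for Cck in neurons, -0.083, -0.011 and -0.036 for Vip, Penk and Pthlh in non-transduced VIP nuclei, -2.73 and -0.33 for Vip and Penk in all nuclei, -0.036 for Penk in mutant transduced against non-transduced nuclei and 0.41 for Penk in the interaction with population. Against no AAV it gave 0.47, 0.32, 0.79 and 0.18 for Vip, Penk, Crh and Pthlh in mutant transduced nuclei, 0.25, 0.35, 0.45, 0.39 and 1.30 for Vip, Penk, Crh, Npy and Cck in mutant non-transduced nuclei, and 0.44, 3.13 and 0.049 for Penk, Crh and Cck in all nuclei. Cck in non-transduced VIP nuclei was 0.034 with DESeq2, 0.034 with RLE size factors, 0.013 with Xist class and 0.016 with only the groups compared, and in neurons -0.20 with libraries labelled female only. Xist class gave -0.25 for Vip in all nuclei, 0.034 for Pthlh in mutant transduced nuclei against no AAV and 0.10 for Crh in all nuclei against no AAV, which was 0.44 with labelled sex. Without the libraries that stood apart Vip in mutant transduced nuclei against no AAV was 0.039 and the Pthlh to Vip ratio 0.077.

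Without a single library, lowest and highest values were as follows where the sign changed. In VIP nuclei non-transduced, Kir2.1 against mutant, Cck was -0.26 to 0.27, Vip -0.048 to 0.20 and Pthlh -0.003 to 0.30. In all nuclei, Kir2.1 against mutant, Vip was -1.20 to 1.14, Penk -0.14 to 0.43 and Crh -1.53 to 0.27. In neurons Npy was -0.47 to 0.59 and Cck -0.18 to 0.25. In the interaction with population Vip was -1.97 to 0.31, Penk -0.44 to 0.36 and Crh -0.30 to 0.84. Against no AAV, mutant transduced VIP nuclei gave -0.26 to 0.071 for Vip, -0.67 to 0.18 for Crh and -0.30 to 0.14 for Pthlh. Mutant non-transduced VIP nuclei gave -1.07 to 0.29 for Npy and -0.59 to 0.037 for Cck, and all nuclei -0.84 to 0.31 for Npy, -1.44 to 0.76 for Penk and -1.08 to 5.26 for Crh.

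Counts over all genes moved by more than 1.5 times in places. In transduced VIP nuclei 294 genes passed, 46 with libraries labelled female only and 68 with those labelled male only. In neurons 898 passed, 1445 with DESeq2, 526 with the replicate block, 518 with short genes, 224 female only and 55 male only. For transduced against non-transduced Kir2.1 nuclei 163 passed, 251 with DESeq2 and 105 with only the groups compared, and for the mutant 2 and 6 with DESeq2. For the interaction with transduction 85 passed, 719 with no filter, 39 with the block, 144 with short genes and 35 with only the groups compared. For that with population 58 passed, 118 with DESeq2, 274 with no filter and 38 with the block. Against no AAV, transduced Kir2.1 nuclei had 47, and 161 with DESeq2, 79 with the block, 79 with short genes and 23 with only the groups compared. Mutant transduced nuclei had 6, and 72 with DESeq2, 34 with the block, 11 with short genes and 11 with only the groups compared. Mutant non-transduced nuclei had 0, and 53 with DESeq2, 25 with the block, 8 with short genes and 2 to 7 in 5 other settings. All nuclei had 48, and 387 with DESeq2, 30 with the block and 27 with short genes. Outside VIP nuclei Vip, Crh and Pthlh rest on few counts. Vip had 0 counts in the deepest Kir2.1 library of all nuclei (8784101 counts) and 324 in library 1 (4546789 counts), so depth alone does not order these values.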

Other observations

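In 3 mutant VIP libraries Vip was low while the summed VIP markers were high. In transduced and non-transduced VIP nuclei of mutant library 1, Vip was at 734 and 787 CPM and Penk at 73.7 and 104 CPM, while the group medians were 5730 and 4333 CPM for Vip. The summed VIP marker list without peptides was 20580 and 23530 CPM in these libraries, above the medians of 18070 and 16530 CPM. In mutant non-transduced library 6 the list summed to 24610 CPM and Vip was at 1392 CPM. The share of counts in genes spanning under 10 kb was 11.7%, 11.9% and 10.4% in the 3 libraries, against medians of 16.9% and 15.1% in their groups. Kir2.1 transduced library 6, with a share of 10.8%, had the highest VIP marker sum of its group at 15880 CPM.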
